A study of Mus musculus with 8 samples.

Results

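Selectins and the integrin–ligand pairs that follow them carry white blood cells out of the bloodstream, and 9 genes of this machinery were examined in cholestatic mouse liver. They are the selectins Selp and Sele, the selectin ligand Selplg, the integrin subunits Itgal and Itgb2, and the endothelial adhesion molecules Icam1, Icam2, Vcam1 and Pecam1. The genes were taken by symbol from the 53816 gene identifiers listed per liver. The genes were chosen by measured values: the group was drawn up around Selp, whose unadjusted p for the difference between the 2 genotypes ranked 7 among 13055 tested genes, and its co-variation over the 8 livers was part of the choice. The genotype difference and the co-variation of these genes are therefore given as descriptions, with no test drawn from them. Of the 9 genes, 8 reached a mean of 1 TPM (a level per transcript length, scaled to the same total in every library) and entered the fit, and Sele did not.

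RNA-seq was run on whole liver from 8 mice, all of which had undergone bile duct ligation, an operation that closes the common bile duct and causes cholestatic injury. Of these, 4 carried the genotype labelled LSEC Myc overexpression and are called Myc-labelled here. The other 4 were labelled WT and are called controls. The promoter or Cre that drives Myc, the strain, age and sex of the mice and the time after surgery were not stated in the labels, and no unligated liver was analysed. Litter, cage and batch were not stated either, so the spread between livers may be partly technical.

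The libraries held 5.295 to 6.739 Gb of aligned bases, as worked out from the deposited coverage and FPKM. The hepatocyte gene Alb stood at 41497 to 95736 TPM, and Cdh5 (endothelium), Ptprc (leukocytes) and Krt19 (bile duct cells) were detected in all 8 livers. Myc itself did not follow the labels, at 339, 356, 25.6 and 249 TPM in the Myc-labelled livers and 272, 207, 554 and 89.2 TPM in the controls, so group names below refer to labels only. Xist was at 43.3, 33.6, 0.0574 and 0.0454 TPM in the Myc-labelled livers and 32.8, 41.0, 0.0543 and 35.2 TPM in the controls, which divides the livers across both groups.

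Leukocytes leave the blood in steps. Selectins on activated endothelium (Selp, Sele) bind sialylated, fucosylated sugars, carried among others by PSGL-1, the product of Selplg, and slow the cell to a roll. Chemokine signals then activate leukocyte integrins such as LFA-1, which is the Itgal and Itgb2 heterodimer, and these bind Icam1 and Icam2. The integrin VLA-4 binds Vcam1, and Pecam1 at endothelial junctions takes part in passage through the wall. P-selectin protein is stored in the Weibel-Palade bodies of endothelial cells and in platelet granules. In the sinusoids of the liver, leukocyte arrest is known to depend less on selectins than in the venules of other organs.

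Sele and Selp both lie on the plus strand of chromosome 1 (mm10), and their promoters are shown because these related genes sit close together but differed in level. Sele (ENSMUSG00000026582.6) spans 164048234 to 164057677 and Selp (ENSMUSG00000026580.16) spans 164115264 to 164150026. Both windows hold the 250 bases before the RefSeq start (GRCm38.p6, plus strand). Capitals mark AGGAAG, a core bound by ETS factors, on either strand, and TATAAA.
Selp, chr1:164115014-164115263: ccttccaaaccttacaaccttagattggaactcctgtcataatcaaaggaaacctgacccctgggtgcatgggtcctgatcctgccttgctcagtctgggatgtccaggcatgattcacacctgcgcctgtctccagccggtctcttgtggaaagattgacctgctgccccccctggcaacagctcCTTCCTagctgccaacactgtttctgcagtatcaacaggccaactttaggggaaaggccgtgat
Sele, chr1:164047984-164048233: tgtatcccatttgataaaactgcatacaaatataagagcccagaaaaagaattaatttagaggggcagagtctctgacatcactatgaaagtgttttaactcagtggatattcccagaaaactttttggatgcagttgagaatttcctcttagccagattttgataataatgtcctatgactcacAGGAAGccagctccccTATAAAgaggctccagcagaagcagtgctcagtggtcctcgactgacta

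Both selectin windows held AGGAAG at nearly the same distance, on the opposite strand of Selp 64 to 59 bases before the start and on the gene's own strand of Sele 65 to 60 bases before it. That hexamer occurred in 29.5% of 32851 RefSeq promoter windows of the same length. Sele also held TATAAA 49 to 44 bases before its start, a match present in 12.4% of windows, and Selp did not. The matches did not overlap. Neither selectin window, nor that of Icam1, held an exact match to the NF-kB consensus GGGRNWYYCC (3.9% of windows). In that pattern R is A or G, W is A or T, Y is C or T and N is any base. Near matches were not searched, so NF-kB sites that depart from those letters would be missed. The E-box CACGTG that Myc binds (6.02% of windows) was also absent from all 3. Selp, Sele and Icam1 were the 3 of the 9 genes matched to the promoter table. A match is a description of letters and not a bound site.

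Selp, which encodes P-selectin, was the 1 gene of the 9 whose groups did not overlap. It stood at 4.70, 3.08, 3.46 and 3.86 TPM in Myc-labelled replicates 1 to 4, against 2.16, 1.43, 1.95 and 1.5 TPM in control replicates 1 to 4. Every Myc-labelled liver lay above every control. The means were 3.78 ± 0.695 TPM in Myc-labelled livers and 1.76 ± 0.351 TPM in controls (SD, n = 4 each), a ratio of 2.14. The log2 difference was 0.79 ± 0.19 (SE; 95% interval 0.36 to 1.21) on the log2(TPM + 1) scale, where the added 1 shrinks the differences of genes at low levels. Its limma adjusted p was 1.0, so the difference did not pass the threshold of 0.05 over all genes. A separation of this kind, with the Myc-labelled livers above, was seen in 0.935% of the 13055 genes, and a separation in either direction in 1.26%. Because Selp was chosen for this contrast, that share is background and nothing is read from it.

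Since the groups of Selp do not overlap, they separate in any subset of the livers, and the values on each side of the Xist division are given for their size alone. In livers with high Xist, Selp was at 4.70 and 3.08 TPM in Myc-labelled livers and 2.16, 1.43 and 1.5 TPM in controls. In livers with Xist near 0, it was at 3.46 and 3.86 TPM in Myc-labelled livers and 1.95 TPM in the single control. The mean per-base depth over Selp ranged from 4.40 to 12.7 reads, which limits the precision of each value. The opposite-strand transcript Gm16548 overlaps the end of Selp by 1436 bp and the antisense Gm16587 lies within it, and whether reads were assigned by strand was not stated. Gm16548 did not move with Selp, at 0.759, 3.44, 2.07 and 4.16 TPM in Myc-labelled livers and 3.36, 0.912, 3.02 and 3.40 TPM in controls.

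Sele, which encodes E-selectin, was at the edge of detection. Values were 0.313, 0.0483, 0.0876 and 0.512 TPM in Myc-labelled livers and 0.0857, 0.197 and 0.376 TPM in control replicates 2 to 4, with control replicate 1 listed at 0. The groups overlapped, and per-base depth was at most 1.62 reads, so a genotype difference was not detectable at this depth. F5, the coagulation factor V gene that follows Selp on the chromosome, had a log2 difference of 0.06 ± 0.19 and overlapping groups.

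**Figure D1:**
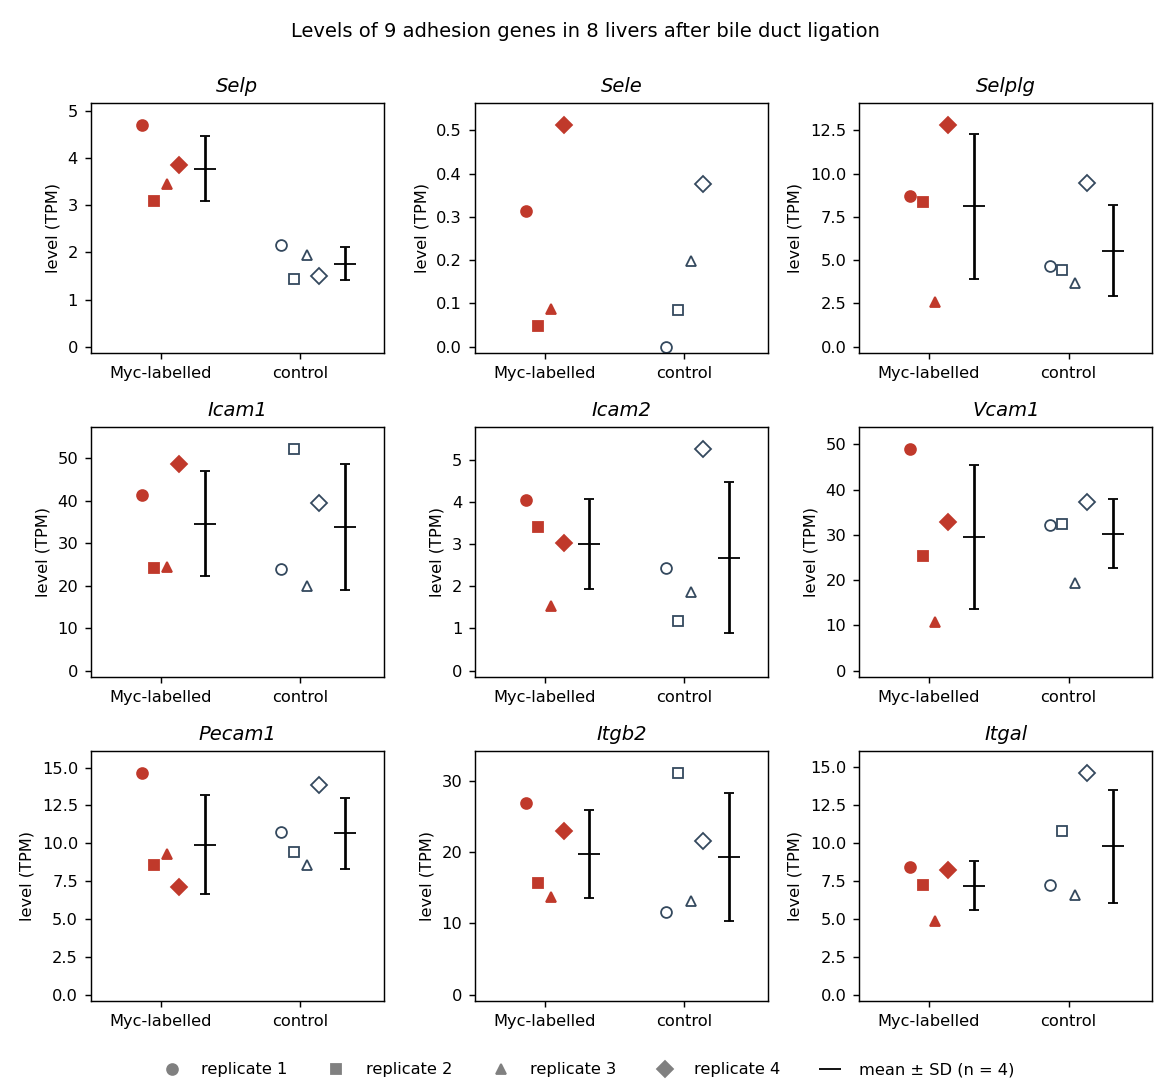
Level in TPM (linear axes, 1 panel per gene) of the 9 adhesion genes in 4 Myc-labelled livers (filled) and 4 controls (open), with marker shapes for the replicate number and black lines for the mean ± SD. No mean is drawn for Sele, which is listed at 0 in 1 liver. Selp separates, with all Myc-labelled livers at 3.08 TPM or more and all controls at 2.16 TPM or less, and the other 8 genes overlap.

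Selplg (ENSMUSG00000048163.13, chromosome 5, 113818536 to 113832644, minus strand), the leukocyte ligand of P-selectin, varied more within the groups than between them. It stood at 8.70, 8.37, 2.59 and 12.8 TPM in Myc-labelled livers and 4.66, 4.45, 3.67 and 9.44 TPM in controls. Myc-labelled replicate 3 was the lowest and Myc-labelled replicate 4 the highest of the 8. Means were 8.12 ± 4.20 TPM in Myc-labelled livers and 5.56 ± 2.63 TPM in controls, and the log2 difference was 0.40 ± 0.40 (95% interval -0.50 to 1.29). Selp and Selplg had Pearson r 0.30 over the 8 livers, and r 0.02 once each value was taken as a deviation from its group mean.

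Itgal and Itgb2, the subunits of LFA-1, pointed different ways and neither was separated. Itgal (ENSMUSG00000030830.18, chromosome 7, 127296260 to 127335138, plus strand) was at 8.38, 7.18, 4.87 and 8.22 TPM in Myc-labelled livers and 7.18, 10.8, 6.52 and 14.6 TPM in controls. Its log2 difference of -0.36 ± 0.25 (95% interval -0.92 to 0.20) was the most negative of the 8 fitted genes, with control replicates 2 and 4 above all others. Itgb2 (ENSMUSG00000000290.13, chromosome 10, 77530252 to 77565708, plus strand), the beta subunit that LFA-1 shares with Mac-1, was at 26.8, 15.6, 13.6 and 22.9 TPM in Myc-labelled livers and 11.6, 31.1, 13.2 and 21.5 TPM in controls. The controls held both the highest and the lowest Itgb2 value, and the log2 difference was 0.08 ± 0.31 (95% interval -0.61 to 0.78). The ratio of Itgal to Itgb2 was 0.312, 0.461, 0.357 and 0.359 in Myc-labelled livers and 0.621, 0.348, 0.495 and 0.680 in controls. Control replicate 2 lay among the Myc-labelled livers, so the ratio overlapped as well.

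Icam1 and Vcam1, immunoglobulin-type ligands of the integrins, had the highest means of the 9 and overlapped between the labels. Icam1 (ENSMUSG00000037405.8, chromosome 9, 21015985 to 21028817, plus strand), the cytokine-inducible ligand of LFA-1 and Mac-1, was at 41.3, 24.1, 24.4 and 48.7 TPM in Myc-labelled livers and 23.9, 52.2, 19.9 and 39.4 TPM in controls. In each group a pair of livers was at 24.4 TPM or less and another pair at 39.4 TPM or more, and the log2 difference was 0.07 ± 0.33 (95% interval -0.67 to 0.80). Vcam1 (ENSMUSG00000027962.14, chromosome 3, 116109949 to 116129688, minus strand), the ligand of VLA-4, was at 49.0, 25.3, 10.8 and 32.9 TPM in Myc-labelled livers and 32.2, 32.3, 19.3 and 37.2 TPM in controls. Both extremes of Vcam1 were Myc-labelled livers, and the log2 difference was -0.18 ± 0.40 (95% interval -1.07 to 0.71). Without Myc-labelled replicate 3 it was 0.22, so that 1 liver set its sign.

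Icam2 and Pecam1, which endothelium expresses without induction, also overlapped. Icam2 (ENSMUSG00000001029.15, chromosome 11, 106377656 to 106388075, minus strand) was at 4.03, 3.41, 1.52 and 3.03 TPM in Myc-labelled livers and 2.44, 1.18, 1.85 and 5.25 TPM in controls, with a log2 difference of 0.19 ± 0.33 (95% interval -0.54 to 0.91). Pecam1 (ENSMUSG00000020717.19, chromosome 11, 106654217 to 106750628, minus strand) was at 14.6, 8.59, 9.29 and 7.11 TPM in Myc-labelled livers and 10.8, 9.40, 8.56 and 13.9 TPM in controls. The Pecam1 extremes were again both Myc-labelled, and its log2 difference was -0.12 ± 0.22 (95% interval -0.61 to 0.37), the narrowest interval after that of Selp.

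Of the 8 genes fitted with limma, 0 passed an adjusted p of 0.05, as did 0% of all 13055 tested genes, while 1.86% of the tested genes had an unadjusted p under 0.05, with 1.26% higher in the Myc-labelled livers. The log2 difference was positive in 5 of the 8 genes and negative in 3, with a median of 0.07, against 58% positive and a median of 0.04 over all tested genes. The limma adjusted p was 1.0 for each of the 8. Apart from Selp, the upper bounds of the 95% intervals ran from 0.20 log2 units for Itgal to 1.29 for Selplg, and the lower bounds from -1.07 for Vcam1 to -0.50 for Selplg. Differences inside those bounds could not be told from the spread between livers.

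**Figure D2:**
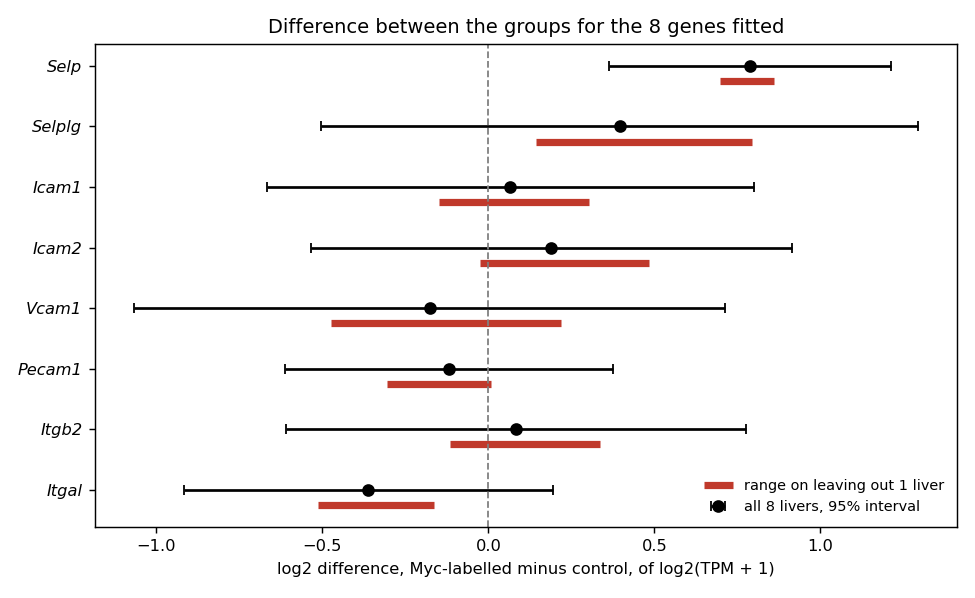
Log2 difference (Myc-labelled minus control, log2(TPM + 1) scale) of the 8 fitted adhesion genes, with thin bars for the 95% interval from the fit over all 13055 genes and red bars for the range on leaving out each liver in turn. The interval of Selp (0.36 to 1.21) lies above 0 and the other 7 include 0, and none of the 8 passed an adjusted p of 0.05. Selp was chosen for this contrast, so the place of its interval follows from the choice and is no test.

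TPM is corrected for transcript length, so levels can be ordered between genes. Over all 8 livers the mean was 34.2 TPM for Icam1, 29.9 TPM for Vcam1, 19.5 TPM for Itgb2, 10.3 TPM for Pecam1, 8.47 TPM for Itgal, 6.84 TPM for Selplg, 2.84 TPM for Icam2, 2.77 TPM for Selp and 0.202 TPM for Sele. Icam1 exceeded Vcam1 in 5 of 8 livers, and Pecam1 exceeded Itgal, and Itgal exceeded Selplg, in 5 of 8 each, so these neighbours did not differ beyond their spread. Itgb2 was above Pecam1, Selplg above Icam2, and Selp above Sele in all 8 livers. Selp exceeded Icam2 in 5 of 8 livers, and their means differed by 0.05 of the larger SD, so their order was not resolved.

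Whole liver mixes cell types, and fewer cells of a type and less RNA per cell cannot be told apart in these data. Levels of Selp relative to endothelial genes were therefore also compared. The ratio of Selp to Pecam1 was 0.321, 0.359, 0.372 and 0.543 in Myc-labelled livers and 0.201, 0.153, 0.228 and 0.108 in controls, without overlap. Against Cdh5, the endothelial cadherin, the ratio was 0.299, 0.249, 0.327 and 0.397 in Myc-labelled livers and 0.208, 0.090, 0.186 and 0.073 in controls, again without overlap. Both ratios carry the Selp values that chose the gene and are descriptions. Relative to the platelet gene Pf4 the groups overlapped, with ratios of 0.280, 0.555, 0.802 and 0.481 in Myc-labelled livers and 0.257, 0.801, 0.125 and 0.548 in controls.

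**Figure D3:**
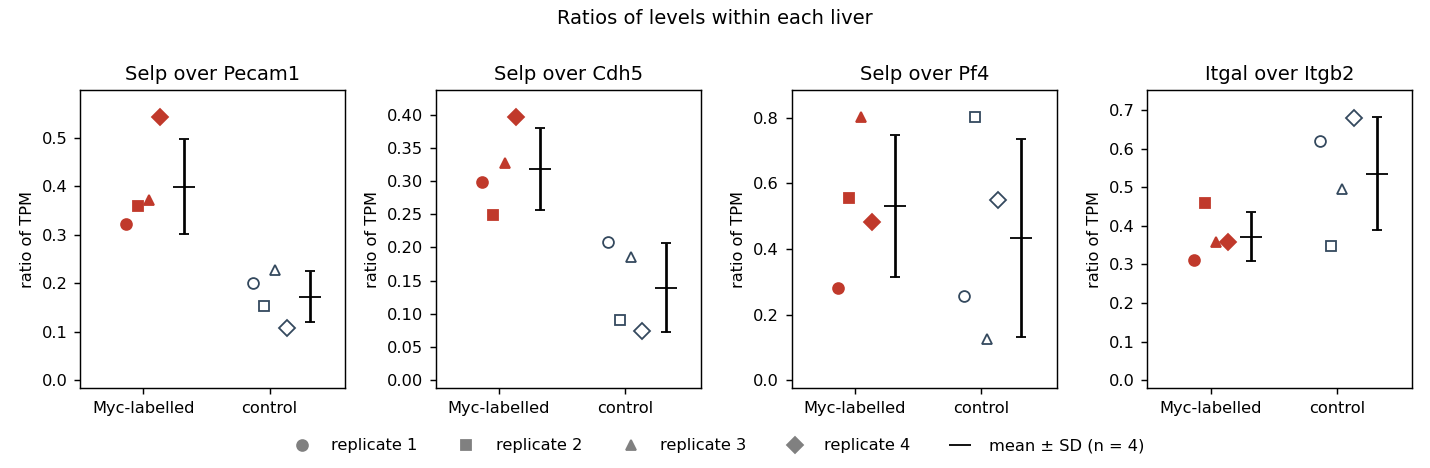
Ratios of TPM values per liver (linear axes) in 4 Myc-labelled livers and 4 controls, with black lines for the mean ± SD. The ratios of Selp to Pecam1 and to Cdh5 do not overlap between the labels (0.399 ± 0.098 against 0.172 ± 0.053 for Pecam1), whereas the ratios of Selp to Pf4 and of Itgal to Itgb2 overlap.

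Apart from Selp, the fitted genes tended to be high in the same livers. The 8 fitted genes form 28 pairs, of which 25 had a positive Pearson r of log2(TPM + 1) over the 8 livers, with a median of 0.49 and a range of -0.51 to 0.94. An r of at least 0.5 was reached by 13 pairs. Deviations from the group means gave the same median of 0.49. The pairs share libraries and their scaling: with median-of-ratios scaling 18 of 28 were positive and the median was 0.33. All of these correlations describe 8 livers and carry no test.

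The closest pair was Icam1 and Itgb2, an integrin ligand and the subunit of its leukocyte receptors. Their r was 0.94 and Spearman's rho 0.93. Leaving out each liver in turn gave 0.91 to 0.95, leaving out the 2 livers farthest from the median of Icam1 gave 0.92, and deviations from the group means gave 0.94. The shared order is plain in the values, with control replicate 2 highest in both genes (52.2 TPM for Icam1, 31.1 TPM for Itgb2). Next came Selplg with Icam2 (r 0.79, rho 0.79), Selplg with Vcam1 (r 0.72, rho 0.81) and Vcam1 with Itgal (r 0.72, rho 0.88). The subunits Itgal and Itgb2 had r 0.66 and rho 0.69, below the value for Icam1 and Itgb2. Vcam1 with Itgal rested partly on the lowest livers, since r was 0.30 without the 2 farthest from the median of Vcam1.

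Selp stood apart from the co-varying genes. Its r was 0.30 with Selplg, 0.23 with Icam2, 0.02 with Icam1, 0.02 with Itgb2, -0.01 with Vcam1, -0.06 with Pecam1 and -0.51 with Itgal, with a median of 0.02. Among the other 7 genes, the corresponding median ran from 0.25 for Pecam1 to 0.62 for Vcam1. As deviations from the group means, the r of Selp ran from -0.27 with Itgal to 0.33 with Vcam1, and was 0.31 with Pecam1. Leaving out single livers moved the r of Selp with Icam2 between -0.08 and 0.74, and with Pecam1 between -0.67 and 0.25, so these values rest on few livers. The within-group SD of Selp on the log2(TPM + 1) scale was 0.19, and 15.3% of tested genes had a smaller one. Choice by a small p favours a small SD, and the added 1 shrinks the SD of genes at low levels. Nothing is therefore read from that share.

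**Figure D4:**
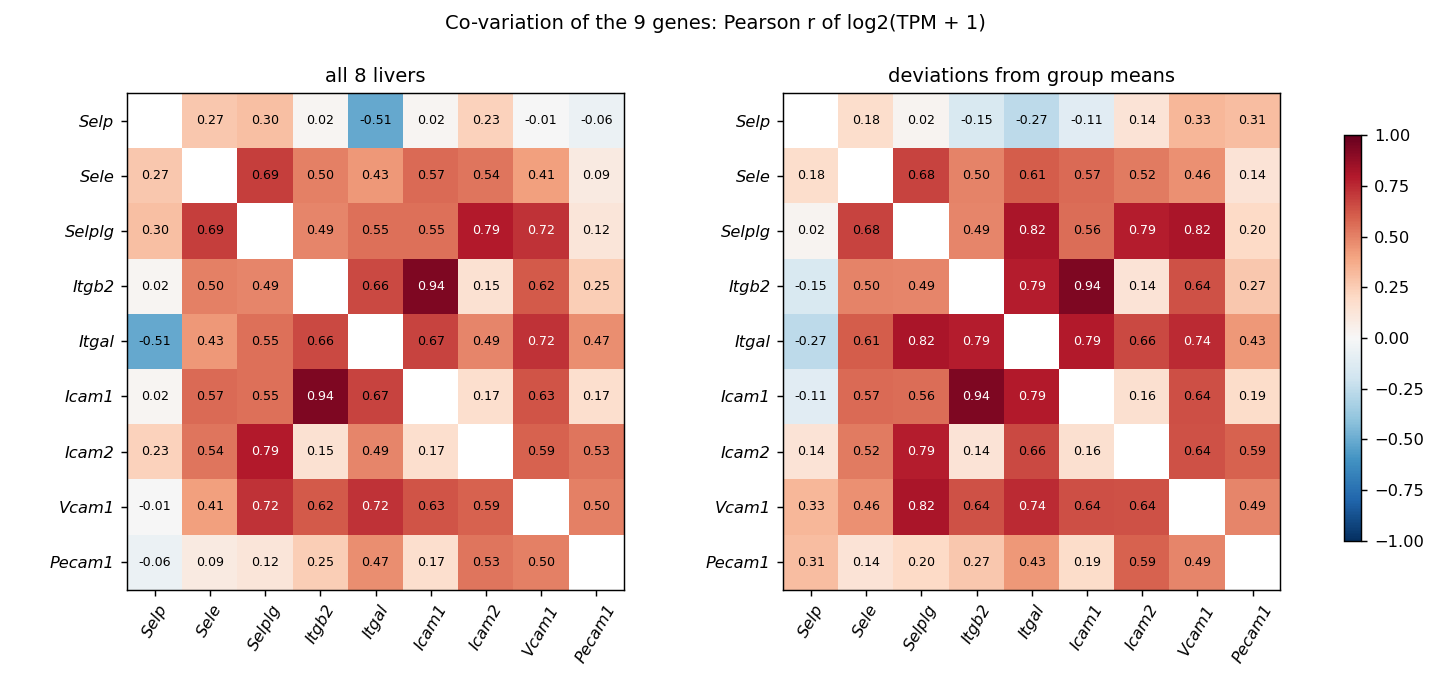
Pearson r of log2(TPM + 1) for each pair of the 9 adhesion genes, over all 8 livers (left) and as deviations from the group means (right), with red for positive and blue for negative values. Icam1 and Itgb2 share the highest value (0.94 in both panels), the left row of Selp holds values between -0.51 and 0.30, and the values of Sele rest on levels near the detection limit.

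Markers of other cell types moved with several of the genes. Against the mean of 12 pan-leukocyte genes (all 12 in the fit), r was 0.90 for Selplg, 0.88 for Vcam1, 0.83 for Icam1, 0.77 for Itgb2 and 0.72 for Itgal, but 0.25 for Pecam1 and 0.14 for Selp. That list summed to 119 to 327 TPM in Myc-labelled livers and 166 to 312 TPM in controls, and 6 of its members were higher and 6 lower by label. When each liver's pan-leukocyte mean was subtracted from the adhesion genes, the median r of the 28 pairs was 0.08, and Icam1 with Itgb2 had 0.84. Subtracting the same value from every gene can itself raise or lower an r, as for Selp with Pecam1 (-0.06 before, 0.50 after). These values therefore do not measure co-variation beyond leukocyte content. Of the 13 marker lists, Itgal had its highest r with the Kupffer cell list (0.85) and Pecam1 with the pan-endothelial list (0.91). Icam2 had its highest r with the T and NK cell list (0.93), in which 1 gene was fitted, followed by the venous and capillarised endothelial list (0.90). With the pan-endothelial list, r was 0.12 for Icam1 and 0.70 for Vcam1. The part of leukocyte content in the levels of Vcam1 and Icam1 was not tested.

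No cell type list reached an r with Selp as high as the best list of each other gene. Its highest r with these lists were 0.56 with the neutrophil list and 0.55 with the cholangiocyte list, and its lowest was -0.53 with the Kupffer cell list. It had r -0.00 with the pan-endothelial list and 0.33 with the platelet list. Some of these lists also leaned by label. All 10 neutrophil genes in the fit, of 15, were higher in the Myc-labelled livers, with a median of 0.60, and none passed. Their list summed to 52.3 to 188 TPM in Myc-labelled livers and 27.97 to 96.7 TPM in controls, with Ly6g, Camp, Ltf and Stfa2l1 listed at 0 in some livers. All 11 Kupffer cell genes in the fit, of 12, were lower, with a median of -0.44. The list of 12 summed to 664 to 1239 TPM in Myc-labelled livers and 861 to 1767 TPM in controls. The part of either list in the Selp difference was not tested. By deviations from the group means, r of Selp was 0.08 with the neutrophil list, 0.42 with the pan-endothelial list and 0.85 with the platelet list. That last value was above the highest r of Itgb2 by such deviations (0.79, neutrophil list). The lower values of Selp thus hold for r over all livers only.

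Markers of endothelium and platelets, the known sources of P-selectin, had overlapping summed levels. The pan-endothelial list summed to 128 to 210 TPM in Myc-labelled livers and 138 to 206 TPM in controls, with 8 of 17 genes higher and 9 lower. The sinusoidal endothelial list summed to 181 to 358 TPM in Myc-labelled livers and 286 to 346 TPM in controls, with 13 of 16 genes lower and a median of -0.24, and none passed. Of 13 platelet and megakaryocyte genes 4 passed the level filter, 2 higher and 2 lower. The summed level of all 13 was 59.2, 39.5, 37.4 and 30.9 TPM in Myc-labelled livers and 46.3, 44.7, 44.6 and 40.6 TPM in controls. Gp5, Gp6, Gp9, Treml1 and Tubb1 were among the genes listed at 0 in some livers. T, NK and B cell markers were near the detection limit, with 1 of 15 and 1 of 10 genes in the fit, each higher. Among the other lists, 8 of 13 monocyte and recruited macrophage genes, 8 of 14 venous and capillarised endothelial genes, 10 of 14 stellate and myofibroblast genes and 8 of 9 fitted cholangiocyte genes were higher, and 10 of 13 hepatocyte genes lower, with medians of 0.14, 0.05, 0.17, 0.27 and -0.10. None of these genes passed.

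**Figure D5:**
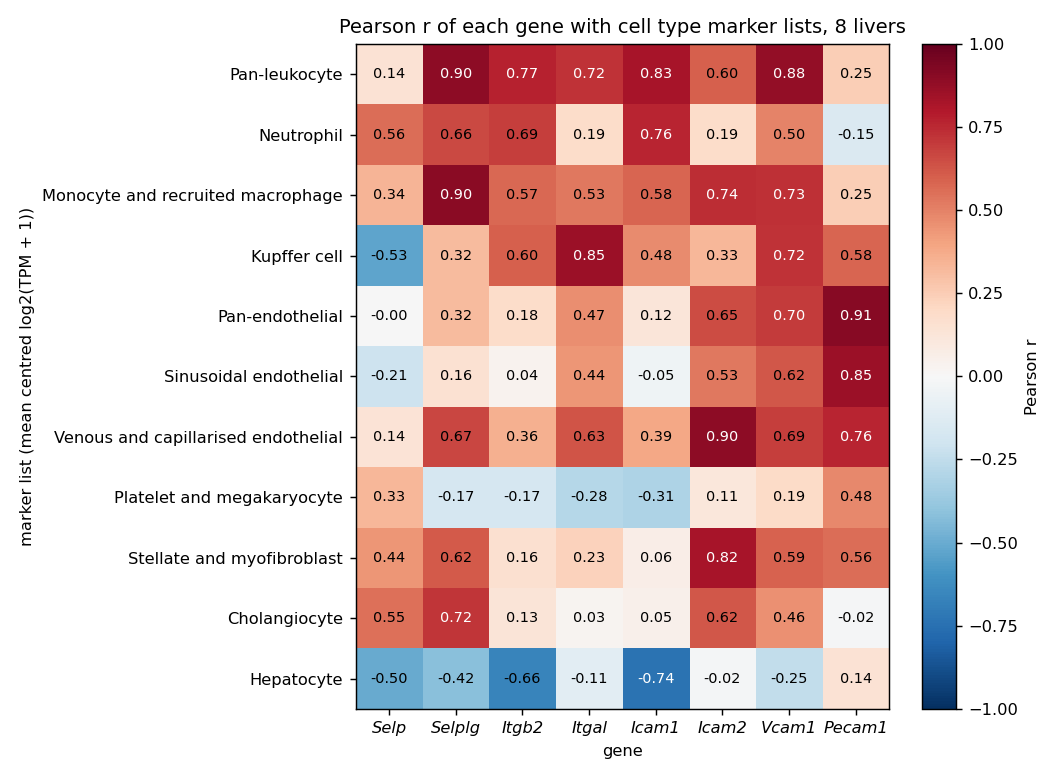
Pearson r over 8 livers between log2(TPM + 1) of each fitted adhesion gene (columns) and the mean of each of 11 cell type marker lists (rows; the T and NK cell and B cell lists, with 1 fitted gene each, are not drawn), with red for positive and blue for negative values. Selplg, Vcam1 and Icam1 reach 0.83 to 0.90 with the pan-leukocyte list and Pecam1 reaches 0.91 with the pan-endothelial list, while the values of Selp lie between -0.53 and 0.56. Deviations from the group means, by which Selp had 0.85 with the platelet list, are not drawn.

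The wider adhesion pathway was read from 6 lists holding 98 genes. Of these, 72 were fitted with limma, 0 passed an adjusted p of 0.05, 42 were higher and 30 lower in Myc-labelled livers, and the median log2 difference was 0.06. Among genes that make or carry selectin ligands, 12 of 19 were fitted, 5 higher and 7 lower, with a median of -0.03. Cd34, a sialomucin that can carry selectin ligands, was at 3.96 ± 1.94 TPM in Myc-labelled livers and 2.91 ± 0.898 TPM in controls. St3gal3, a sialyltransferase, was at 24.5 ± 5.83 TPM in Myc-labelled livers and 27.4 ± 4.53 TPM in controls. Both differences were within the spread of the livers.

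Other leukocyte integrin subunits had 8 of 11 genes fitted, 6 higher and 2 lower, with a median of 0.18. Itgax, the alpha subunit that joins Itgb2 in CR4, was at 1.5 ± 1.05 TPM in Myc-labelled livers and 0.742 ± 0.772 TPM in controls. Itgam, the alpha subunit of Mac-1, was at 7.68, 4.42, 4.96 and 8.90 TPM in Myc-labelled livers and 2.99, 10.5, 3.34 and 4.6 TPM in controls. It is named after its values were seen, as the other main partner of Itgb2. Control replicate 2 was highest in both Itgam and Itgb2. The ratio of Itgam to Itgal was 0.916, 0.616, 1.02 and 1.08 in Myc-labelled livers and 0.416, 0.976, 0.512 and 0.316 in controls, with control replicate 2 among the Myc-labelled livers.

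Integrin activation genes, which link chemokine signals to LFA-1, split evenly, with 7 higher and 7 lower of 14 fitted and a median of -0.02 (0.0054 with FPKM in place of TPM). Rap1b, a small GTPase of that route, was at 59.0 ± 15.3 TPM in Myc-labelled livers and 47.2 ± 7.80 TPM in controls. Vav1, a leukocyte exchange factor, was at 5.34 ± 1.6 TPM in Myc-labelled livers and 7.01 ± 2.28 TPM in controls. Other endothelial adhesion and transmigration genes had 7 higher and 6 lower of 13 fitted, with a median of 0.01 (-0.02 with median-of-ratios scaling). In that list Pvr, a nectin-like adhesion molecule, was at 14.4, 8.27, 8.15 and 19.1 TPM in Myc-labelled livers and 5.63, 10.7, 10.3 and 6.16 TPM in controls. Its groups overlapped, and its log2 difference of 0.51 ± 0.30 did not pass. Also in that list, Ackr1, a venular chemokine-binding receptor, was at 0.760, 1.021, 0.941 and 1.005 TPM in Myc-labelled livers and 1.022, 1.04, 1.13 and 3.04 TPM in controls. The Ackr1 groups touched without overlapping, with the Myc-labelled livers lower, a pattern seen in 0.322% of the 13055 tested genes. The highest Myc-labelled value and the lowest control value, 1.021 and 1.022 TPM, were nearly equal. Mean per-base depth over Ackr1 ranged from 2.05 to 8.97 reads, so nothing is read from that separation. The log2 difference of Ackr1 was -0.34 ± 0.26 and did not pass, and the highest control stood well above the rest.

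The list of cytokine and NF-kB pathway genes had 13 higher and 5 lower of 18 fitted, with a median of 0.11. It holds cytokines known to induce Sele, Icam1 and Vcam1, and also inhibitors and targets of NF-kB. Tnfrsf1b, a TNF receptor, was at 30.4 ± 12.2 TPM in Myc-labelled livers and 20.8 ± 6.23 TPM in controls. Birc3, an NF-kB target, was at 21.2 ± 7.48 TPM in Myc-labelled livers and 15.2 ± 5.52 TPM in controls. Neither passed. Over the 8 livers the mean of this list had r 0.92 with Itgb2, 0.85 with Icam1, 0.52 with Vcam1 and 0.13 with Selp.

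Weibel-Palade body genes, whose products form or move the store that holds P-selectin, had 4 higher and 3 lower of 7 fitted, with a median of 0.05. Cd63, a membrane protein of that store and of lysosomes in many cells, was at 107, 51.5, 44.6 and 52.7 TPM in Myc-labelled livers and 32.0, 19.2, 46.7 and 24.4 TPM in controls. Its log2 difference was 1.03 ± 0.32 with a limma adjusted p of 1.0, and control replicate 3 lay above 1 Myc-labelled liver. Vwf, the main cargo of the store, was at 1.49 ± 0.726 TPM in Myc-labelled livers and 1.53 ± 0.193 TPM in controls. Vwf is named after its values were seen.

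Each adhesion gene was also set beside the genes of most similar pattern, by Pearson r of log2(TPM + 1) over the 8 livers among 10469 genes whose mean reached 2 TPM and which have an established symbol. For Selp these were Cisd2 (r 0.96), Vhl (r 0.96), Cav2 (r 0.95), Mbtps2 (r 0.95) and Ap3s1 (r 0.94). Cav2, a caveolar protein, averaged 4.10 ± 0.689 TPM in Myc-labelled livers and 2.71 ± 0.631 TPM in controls. Vhl, the substrate-binding subunit of the ligase that marks hypoxia-inducible factors, averaged 7.31 ± 0.634 TPM in Myc-labelled livers and 5.64 ± 0.528 TPM in controls. None of the 5 is a leukocyte or adhesion gene in the lists used here, and 15 genes reached an r of 0.9 with Selp.

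The remaining genes had neighbours of other kinds. Genes most like Selplg included H2-Ab1 (r 0.98) and H2-Eb1 (r 0.97), MHC class II chains. Vcam1 was most like Capza2, Pitpna, Ctss, Arpc5 and Actr3 (r 0.97 to 0.98), and 120 genes reached an r of 0.9 with it, the most of the 8. Itgb2 was most like Pik3r5 and Synpo (r 0.98 each), Nploc4, Tbc1d22a and Ube4b, and Icam1 shared Nploc4 (r 0.95) and Tbc1d22a (r 0.94) among its closest 3, beside Dram1 (r 0.97). Itgal was most like H2-D1 (r 0.98), Themis2 (r 0.97) and Fermt3 (r 0.96), the last being the blood-cell kindlin that activates integrins. Icam2 was most like Tmbim1, Ropn1l and Rtp4 (r 0.96 to 0.97). Pecam1 was most like Rufy3 (r 0.97), Sema3f (r 0.95), Itch, Hmox2 and Elmod3 (r 0.93 each). These are the highest values among 10469 candidates over 8 livers, and nothing is read from them about shared function or control.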

How the data were processed

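Total RNA from 8 livers was made into mRNA libraries, per the labels' protocols. The submitters' processing notes name HISAT2, StringTie and the build mm10, without versions. TPM was deposited by the authors and was the main unit. The authors also deposited FPKM. The third column is coverage per base, a signal that keeps library depth, per the file headers. Counts of reads played no part here, and strand handling was not stated. Between 10 and 15 repeated gene rows per library were summed. Of the identifiers, 98.3% matched GENCODE M21 with their version.

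A linear model of log2(TPM + 1) on genotype, without covariates, was fitted in limma 3.58.1 under R 4.3.3 with a robust variance trend. It took the 13055 genes whose mean reached 1 TPM, and two-sided p-values were adjusted by Benjamini-Hochberg. The fit was tested on simulated data. Other values were computed with Python 3.11.15, pandas 2.3.3, numpy 2.4.6 and scipy 1.17.1. The adhesion genes and the 19 gene lists were chosen with earlier results of these data known. Named genes were the 9 adhesion genes, Myc, their overlapping or neighbouring genes, up to 2 genes of smallest p per list that are described, and the 3 or 5 genes of most similar pattern. Alternatives covered the pseudocount, filter, scaling, FPKM, variance model, array weights, replicate block and leaving out each library, and, chosen after seeing the data, a log2 Xist covariate and subtraction of the pan-leukocyte mean. Values of some genes that the rule names are not reported here. Intervals are 95%.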

Additional observations from a re-analysis of the deposited data

Results flagged for a closer look

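In Myc-labelled replicate 3 the mean of the cholangiocyte list, on the log2(TPM + 1) scale centred over the 8 livers, was -0.56, against 0.49, 0.35 and 0.42 in the other Myc-labelled livers. It was flagged because its gap to the nearest liver was 0.868 of the group's range. Of 56 groups of 4 livers examined (9 adhesion genes, 6 pathway lists and 13 marker lists, each in both groups), this was the 1 so marked, and chance marks about 5% of groups. The same liver had the lowest Selplg, Vcam1 and Itgal of the 8.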

How the results depend on the processing

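The count of genes past the threshold was 0 in the main fit and under the alternatives run, except 1 lower gene with array weights. Selp kept its sign in all settings, from 0.37 (pseudocount 5) to 1.06 (pseudocount 0.1), and 0.70 to 0.86 leaving out each library. Because its groups do not overlap, neither another pseudocount nor leaving out a library could turn that sign. The kept sign is therefore no support for a difference. A filter at a mean of 5 TPM removed Selp and Icam2. Signs turned in Icam1 (-0.10 with array weights; -0.15 to 0.30 leaving out each library), Icam2 (-0.024 to 0.48), Vcam1 (0.026 with the Xist covariate; -0.47 to 0.22), Pecam1 (-0.31 to 0.0094) and Itgb2 (-0.050 with array weights; -0.11 to 0.34). The cause was not tested. Selplg (0.14 to 0.79) and Itgal (-0.51 to -0.16) kept their signs leaving out each library. The median r of the 28 pairs was 0.0823 after subtracting the pan-leukocyte mean, and 0.424 to 0.601 leaving out each library. Livers of the same replicate number did not deviate together (correlations -0.058 to 0.128), and the labels do not state that the numbers pair mice. Such correlations cannot exclude a pairing whose effect is small beside the spread between livers. With the replicate block 0 genes passed, so no call changed. The Selp difference stayed at 0.79 by design, since each number holds a liver of each group. Its SE was 0.22 with the block and 0.19 without. Without Myc-labelled replicate 3 the median of all genes was 0.115. With median-of-ratios scaling the pan-leukocyte median was -0.0068. The T, NK and B cell lists gave no value with a filter at 5 TPM. Depth limits Sele, and to a lesser degree Selp and Icam2.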

Other observations

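Among genes outside the adhesion lists, markers of neutrophil activity stood higher in the Myc-labelled livers without passing the test. Il1r2, the decoy receptor of interleukin 1, was at 4.79 ± 2.12 TPM in Myc-labelled livers and 1.63 ± 1.19 TPM in controls. The Il1r2 groups overlapped, with control replicate 2 at 3.29 TPM above Myc-labelled replicate 3 at 2.46 TPM. Mmp9, the neutrophil gelatinase, was at 3.51 ± 2.40 TPM in Myc-labelled livers and 1.19 ± 0.177 TPM in controls, with every Myc-labelled liver above every control. A separation in that direction was seen in 0.935% of the 13055 tested genes. Both Il1r2 and Mmp9 were named for their small p, so nothing is read from their differences or from the separation of Mmp9. The 2 genes of smallest p in the pan-endothelial list (Robo4, Ptprb) and in the sinusoidal list (Ehd3, Stab2) were lower and did not pass. In the pan-endothelial list 8 of 17 genes were higher. The 2 named for the venous and capillarised list went opposite ways and did not pass. Ackr1 was lower, and Vcl was at 10.96 ± 5.53 TPM in Myc-labelled livers and 7.31 ± 3.30 TPM in controls. That list had 8 of 14 genes higher, with a median log2 difference of 0.05. Ehd3, an endocytic gene of sinusoidal endothelium, was at 18.6, 15.4, 6.07 and 9.53 TPM in Myc-labelled livers and 23.5, 18.4, 24.1 and 24.8 TPM in controls. Robo4, an endothelial receptor, was at 4.11 ± 0.898 TPM in Myc-labelled livers and 5.87 ± 0.955 TPM in controls.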
